A study of Solanum lycopersicum with 8 samples.

Results

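GA2ox3 is a tomato (Solanum lycopersicum) gene for a gibberellin 2-oxidase, and its RNA was followed in leaves given tunicamycin or left as controls, at 2 h and at 6 h. It was found by its symbol in the deposited count table, where it is 1 of 29081 genes and has 1 transcript, NM_001247818.2, of 45845. Another 27 genes, with 30 transcripts, are described there as gibberellin oxidases or dioxygenases and serve as context. GA2ox3 was selected on its difference between tunicamycin and control leaves at 6 h, so its 6 h values, and every comparison that uses the 6 h libraries, are given as a description with no test. The 2 h comparison is between other libraries and was tested. Its p-value is not free of the 6 h libraries, since the spread was estimated from all 8 libraries together.

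Tunicamycin is an antibiotic that stops N-linked glycosylation of proteins in the endoplasmic reticulum, and misfolded proteins then gather there. The study had 4 groups of 2 biological replicates: control leaves at 2 h, tunicamycin leaves at 2 h, control leaves at 6 h and tunicamycin leaves at 6 h. The labels give no cultivar, plant age, dose or way of application, nor what the control leaves received. Whether replicates came from separate plants is not stated, so the p-values measure the spread between these libraries.

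Gibberellins are plant hormones that promote growth of stems and leaves. Their level is set by synthesis and breakdown: 20-oxidases and 3-oxidases carry out the last steps towards the bioactive forms, and 2-oxidases hydroxylate bioactive gibberellins or their precursors into inactive ones. A bioactive gibberellin binds the receptor GID1, which then draws DELLA proteins, repressors of growth, to an F-box protein (GID2 in rice, SLY1 in Arabidopsis) for degradation.

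Library totals ran from 4689769 to 122784850 counts. Every group held 1 deep and 1 shallow library, the deeper being replicate 2 in control leaves and replicate 1 in tunicamycin leaves, with 5.49 to 9.98 times the counts of the shallower. Transcripts of mesophyll, namely the small subunit of Rubisco and chlorophyll a-b binding proteins, summed to between 21800 and 46400 CPM (a library's counts put on one total for all libraries) in all 8 libraries, the tissue being labelled leaf. At 2 h these sums were apart, 28400 to 32100 CPM in controls and 35200 to 41200 CPM with tunicamycin, and at 6 h they overlapped. Ribosomal RNA took 0.115% to 0.677% of the counts in 7 libraries and 2.56% in tunicamycin 6 h replicate 2.

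At 2 h, GA2ox3 stood at 21 and 28 CPM in the 2 control libraries, from 103 and 1325 counts. In the 2 tunicamycin libraries of the same time it stood at 6.09 and 4.82 CPM, from 277 and 30 counts. Both tunicamycin libraries lay below both controls, and their exact 95% Poisson intervals, 5.39 to 6.85 and 3.25 to 6.89 CPM, did not reach those of the controls, 17.1 to 25.4 and 26.5 to 29.5 CPM. In all, 19% of the transcripts tested had both tunicamycin libraries below both controls at 2 h and 19% had them above; at 6 h the shares were 12.5% and 13.1%. The intervals cover counting error only. Even numbers made up 55.6% to 76.4% of the nonzero counts in a library, most in the shallow ones, and 2 of the 8 GA2ox3 counts (30 and 14) were even; whether both mates of a read pair were counted is not known, and if they were, the intervals are too narrow. The group mean was 24.5 ± 4.97 CPM for control and 5.46 ± 0.893 CPM for tunicamycin (SD, n = 2 each).

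The fitted log2 fold change at 2 h was −2.15 ± 0.39 (SE), a level 4.45-fold lower with tunicamycin, with a 95% interval from −3.0 to −1.31. All 4 pairs of a tunicamycin with a control library gave a lower level with tunicamycin, by between −1.78 and −2.53 on the log2 scale. By the quasi-likelihood test of edgeR with Benjamini-Hochberg adjustment over all 34483 transcripts tested, the adjusted p was 0.0723, so GA2ox3 did not pass the threshold of 0.05 at 2 h. Its p ranked 33rd from the smallest of all transcripts tested, and its fold change was the 546th most negative. At 2 h, 15 transcripts passed as lower, 0.0435% of those tested, and 1 as higher, 0.0029%. This balance was not stable, and it turned to mostly higher without tunicamycin 2 h replicate 2. The calls also changed when any other 2 h library was left out.

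In 18 alternative analyses the log2 fold change at 2 h lay between −2.37 and −1.96. Their shared direction adds little, since all 4 library pairs were lower with tunicamycin. The call was not the same in all of them. The adjusted p passed 0.05 in 8 of the 18, among them DESeq2 at 0.000508, and missed it in the other 10, where it reached 0.839 without control 2 h replicate 2. In the authors' deposited table GA2ox3 had a log2 fold change of −2.14 at 2 h with a false discovery rate of 2.32e-05, in a table where 817 of 45845 transcripts had a rate under 0.05.

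**Figure D1:**
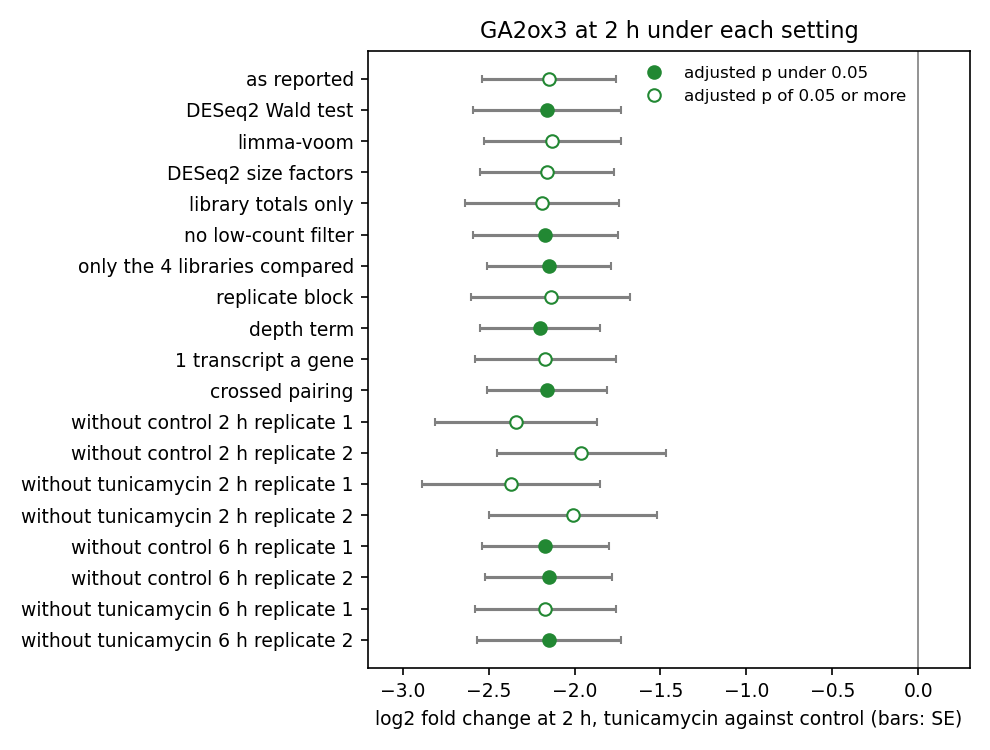
Log2 fold change of GA2ox3 at 2 h, tunicamycin against control (horizontal axis), as reported and in each of 18 alternative analyses (vertical axis); bars are standard errors and filled points have an adjusted p under 0.05. All points lie between −2.37 and −1.96, and 8 of the 18 alternatives are filled.

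At 6 h, GA2ox3 stood at 11 and 18.6 CPM in the 2 control libraries, from 219 and 2353 counts. In the 2 tunicamycin libraries it stood at 1.3 and 0.956 CPM, from 133 and 14 counts. The tunicamycin libraries again lay below both controls, with Poisson intervals of 1.09 to 1.54 and 0.523 to 1.6 CPM against 9.61 to 12.6 and 17.8 to 19.4 CPM. Control averaged 14.8 ± 5.35 CPM and tunicamycin 1.13 ± 0.245 CPM (SD, n = 2 each).

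The fitted difference at 6 h, the one on which the gene was selected, was −3.67 ± 0.42 (SE) on the log2 scale, a level 12.7-fold lower with tunicamycin. It was the 58th most negative fold change among the transcripts tested. Pairs of libraries ranged from −3.04 to −4.22. At 6 h, 104 transcripts passed as lower, 0.302% of those tested, and 7 as higher, 0.0203%, but 16 and 17 without tunicamycin 6 h replicate 2, and nothing is read from these shares for a gene picked on this comparison. The authors' deposited table gave a log2 fold change of −3.69 for GA2ox3 at 6 h.

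**Figure D2:**
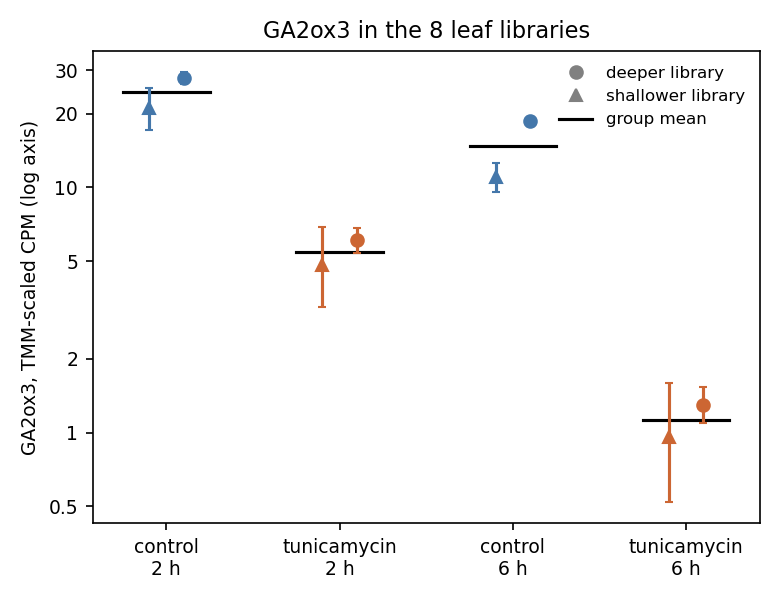
GA2ox3 level in each of the 8 libraries in TMM-scaled CPM on a log axis, by group; bars on points are exact 95% Poisson intervals and horizontal lines are group means. The 4 tunicamycin libraries, from 0.956 to 6.09 CPM, all lie below the 4 control libraries, from 11 to 28 CPM.

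In order of mean level, the groups were control 2 h, control 6 h, tunicamycin 2 h and tunicamycin 6 h, and no 2 of them overlapped. The first 2 in this order were the closest: in control leaves the difference of 6 h from 2 h was −0.73 ± 0.37 (SE) on the log2 scale, 1.66-fold lower at 6 h. The nearest pair of control libraries from the 2 times differed by −0.17 and the farthest by −1.34, so this difference was no larger than the spread between the control libraries at 6 h. In tunicamycin leaves the difference of 6 h from 2 h was −2.24 ± 0.41 (SE), 4.74-fold lower at 6 h, with pairs from −1.85 to −2.62. The log2 difference between tunicamycin and control leaves was thus more negative at 6 h than at 2 h by −1.52 ± 0.55 (SE), given with no test since it rests on the 6 h libraries. Across all transcripts, 0.27% passed between the times in control leaves and 0.603% in tunicamycin leaves, in either direction.

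Because depth differed within each group, the comparisons were repeated within each depth. At 2 h the log2 difference was −2.19 in the deeper pair and −2.11 in the shallower pair. At 6 h the values were −3.79 and −3.47. In control leaves 6 h differed from 2 h by −0.59 (deeper) and −0.92 (shallower), and in tunicamycin leaves by −2.19 and −2.28. These pairs are among the library pairs given above, which were all negative. The direction therefore had to be the same at both depths, and only the sizes could differ.

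A list taken as markers of vascular cells, most of it sugar transporters, also had a lower sum in the tunicamycin libraries at 6 h. The list of 38 genes for sieve element occlusion proteins, sucrose transporters and SWEET sugar transporters summed, at 6 h, to 307 to 371 CPM in controls against 183 to 274 CPM with tunicamycin. At 2 h the sums were 274 to 470 CPM in control and 236 to 275 CPM in tunicamycin leaves, which overlapped. Of the 38 genes, 24 were tested, with median log2 fold changes of −0.58 at 2 h and −0.44 at 6 h. EdgeR called 0 of the 24 at either time, against 16 and 111 of all 34483 transcripts. Another 4 of the 38, all SWEET transporters, were at 0 in every library. The part of vascular cells in the GA2ox3 result was not tested, and in whole leaves fewer cells of a type and less RNA per cell cannot be told apart. Histone H4 and A- and B-type cyclin genes, 12 markers of dividing cells, summed to between 241 and 838 CPM, and root markers to between 2.39 and 5.09 CPM, with overlapping groups at both times.

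The other gibberellin 2-oxidases gave mixed directions at 2 h and mostly positive ones at 6 h. Of 13 such genes, 8 passed the low-count filter, and at 2 h 4 of these had positive and 4 negative fold changes, with a median of 0.66 on the log2 scale. At 6 h 7 were positive and 1 negative, with a median of 0.78. The median over all transcripts was 0.03 at 2 h and 0.03 at 6 h. Of the 15 other gibberellin oxidase transcripts tested, edgeR called 0 at 2 h and 0 at 6 h, against 16 and 111 of all 34483 transcripts. At an unadjusted p under 0.05 there were 3 and 1 of the 15, a level that 7.25% and 4.07% of all transcripts reached. DESeq2 called 1 at 2 h and 0 at 6 h, where it called 0.87% and 1.06% of all transcripts. Limma-voom called 0 at 2 h and 1 at 6 h, against 0.0029% and 0.302% of all transcripts.

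GA2ox4 and GA2ox5, both gibberellin 2-oxidases, had positive fold changes at 2 h that did not pass the edgeR test. GA2ox4 stood at 4.27 and 4.92 CPM in control and at 27.9 and 4.18 CPM in tunicamycin leaves at 2 h, so 1 tunicamycin library was above both controls and the other below both. Its log2 fold change was 1.82 ± 0.67 (SE, adjusted p = 0.567). GA2ox5 stood at 0.407 and 1.14 CPM in control and at 10.7 and 3.22 CPM in tunicamycin leaves at 2 h. Both tunicamycin libraries of GA2ox5 lay above both controls, with a log2 fold change of 3.0 ± 0.77 (SE, adjusted p = 0.25 in edgeR, 0.0186 in DESeq2). In the authors' deposited table GA2ox4 had a log2 fold change of 1.85 and GA2ox5 of 2.99 at 2 h, with false discovery rates of 0.00232 and 0.000402.

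At 6 h the fitted differences of both were smaller than at 2 h, but for neither gene did the change of effect between the times pass the edgeR test (adjusted p = 1 for both). GA2ox5 then stood at 0.503 and 0.6 CPM in control and 1.29 and 0.546 CPM in tunicamycin leaves, a log2 fold change of 0.79 ± 0.72 (SE). GA2ox4 stood at 2.16 and 1.47 CPM in control and 5.08 and 2.73 CPM in tunicamycin leaves, a log2 fold change of 1.16 ± 0.67 (SE, adjusted p = 1), with the groups apart. These 2 genes are neighbours, with 0 protein-coding genes between them in the gene order of the RefSeq assembly SLM_r2.1, and how reads shared by similar genes were counted is not given in the sources used here.

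Of the remaining 2-oxidases tested, GA2ox2 was the other one whose tunicamycin libraries lay above both controls at 2 h, at 3.05 and 1.61 CPM against 0.407 and 0.507 CPM. Its log2 fold change was 2.33 ± 0.92 (SE, adjusted p = 0.608). With 1 transcript taken for each gene, LOC101250999 was the only one besides GA2ox3 with both tunicamycin libraries below both controls at 2 h, at 2.11 and 2.57 CPM against 4.88 and 5.56 CPM. Its log2 fold change was −1.19 ± 0.59 (SE, adjusted p = 0.717), and at 6 h it was −0.26 ± 0.55 with overlapping groups. Among all transcripts tested at 2 h, 19% lay below both controls in this way and 19% above. Such an order alone therefore sets none of these genes apart. The other 4, LOC101249786, LOC101255340, LOC101256366 and LOC101256685, had overlapping groups at 2 h, except a second transcript of LOC101256366 that was below at 2.37 and 2.25 CPM against 2.44 and 2.7 CPM. They had log2 fold changes of −0.42, 1.5, −0.19 and −0.95 at 2 h, while at 6 h all were positive, between 0.44 and 1.11. At 6 h GA2ox3 was thus the only 2-oxidase tested whose 2 tunicamycin libraries lay below both controls, which is the comparison it was selected on. Among all transcripts tested, 12.5% had this order at 6 h, so with so few genes nothing about the family is read from it.

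The change in GA2ox3 relative to its family can be read within a library, as its share of the counts of all 14 gibberellin 2-oxidase genes with 1 transcript taken for each. Such a share does not depend on how libraries were scaled, although longer transcripts weigh more in it. In control leaves GA2ox3 took 57.2% and 59.7% of these counts at 2 h and 37.8% and 65.5% at 6 h. In tunicamycin leaves it took 10.7% and 24.2% at 2 h and 6.33% and 5.43% at 6 h. The 95% Wilson intervals were widest in the shallow 2 h libraries, 49.9% to 64.2% for control and 17.5% to 32.4% for tunicamycin, and those of control and tunicamycin libraries did not overlap at either time. They cover counting error only, and at 6 h the separation comes from the comparison on which the gene was selected.

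GA2ox4 took the most 2-oxidase counts in the deeper tunicamycin library at 2 h, 49.1% against 11.7% and 10.5% in the controls, and 21% in the shallower one. LOC101250999 took 21.8% and 34.1% in tunicamycin leaves at 6 h, but also 34.1% in 1 control library of that time and 9.52% in the other. Without GA2ox3, the 2-oxidases summed to 15.7 and 18.9 CPM in control and 50.6 and 15.1 CPM in tunicamycin leaves at 2 h. At 6 h the sums were 18.2 and 9.8 CPM in control and 19.3 and 16.7 CPM in tunicamycin leaves. The groups overlapped at both times, so the other 2-oxidases as a sum showed no separation of the treatments.

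**Figure D3:**
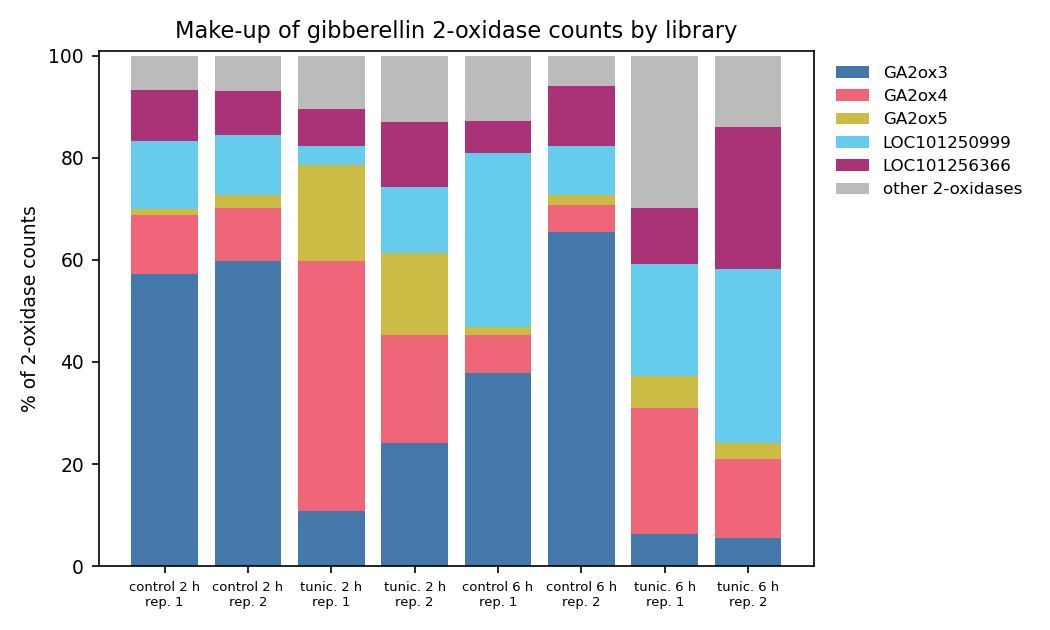
Share of all gibberellin 2-oxidase counts, in percent, taken by each gene in each of the 8 libraries (horizontal axis; tunic. is tunicamycin and rep. replicate). GA2ox3 takes 37.8% to 65.5% in the 4 control libraries and 5.43% to 24.2% in the 4 tunicamycin libraries.

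Of the enzymes that make bioactive gibberellins, 4 of 10 gibberellin 20-oxidase genes and 1 of 4 gibberellin 3-oxidase genes were tested, and another 4 and 2 had no count in any library. The median log2 fold change of the 4 20-oxidases was −0.14 at 2 h and 1.08 at 6 h. At 6 h 3 of them had both tunicamycin libraries above both controls, as did 13.1% of all transcripts tested. The 2 h median turned positive, to 0.30, in limma-voom. The 20-oxidase 20ox-3 stood at 0.503 and 0.079 CPM in control and 2.71 and 1.71 CPM in tunicamycin leaves at 6 h, a log2 fold change of 3.12 ± 1.16 (SE, adjusted p = 0.726 in edgeR, 0.0409 in limma-voom), and at 2 h its groups overlapped at 0.87 ± 1.39. GA20ox1 stood at 2.41 and 0.363 CPM in control and 4.21 and 4.57 CPM in tunicamycin leaves at 6 h, a log2 fold change of 1.72 ± 0.94 (SE, adjusted p = 1), while at 2 h it had the opposite sign, −1.27 ± 1.18, with overlapping groups. The 20-oxidase 20ox-2 was apart at both times, with log2 fold changes of 0.73 ± 0.42 at 2 h (SE, adjusted p = 0.774) and 0.43 ± 0.40 at 6 h.

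The fourth 20-oxidase, LOC101265584, had log2 fold changes of −1.01 ± 0.73 at 2 h and −0.10 ± 0.69 at 6 h. GA3ox1, the 3-oxidase tested, had 0.61 ± 1.54 at 2 h and 0.78 ± 1.49 at 6 h (SE), errors that leave its direction unset. A gene described as a 3b-hydroxylase, 3OH-2, fell outside the descriptions searched and was added after its name was seen. It stood at 0.201 and 0.3 CPM in control and 0.666 and 1.91 CPM in tunicamycin leaves at 6 h, a log2 fold change of 2.23 ± 0.84 (SE, adjusted p = 0.741), and at 2 h its groups overlapped at 1.03 ± 0.81. None of these genes passed the edgeR test.

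**Figure D4:**
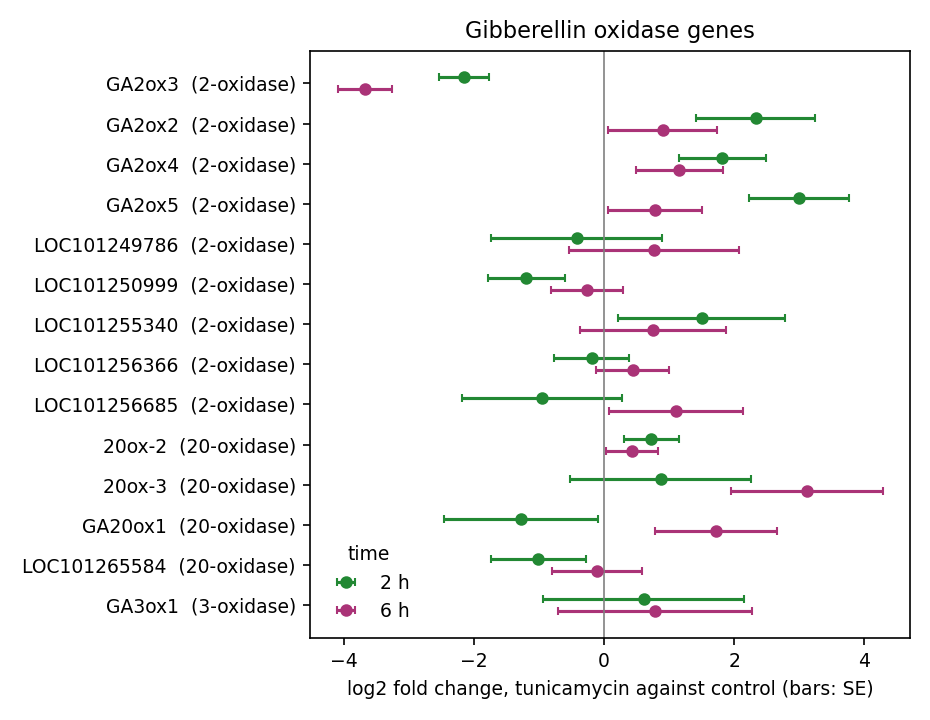
Log2 fold change, tunicamycin against control, of GA2ox3 and the other gibberellin oxidase genes tested, at 2 h and at 6 h, with standard errors. GA2ox3 lies at −2.15 and −3.67, the latter being the comparison it was selected on, and the other genes at 6 h lie between −0.26 and 3.12.

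Genes of the rest of the pathway gave 0 calls in edgeR at either time, where it called 16 (2 h) and 111 (6 h) of all 34483 transcripts. The 40 tested genes for gibberellin oxidases, early synthesis, perception and response, GA2ox3 left out, included 8 with an unadjusted p under 0.05 at 2 h and 4 at 6 h. Among all transcripts these shares were 7.25% and 4.07%. DESeq2 called 2 of the 40 at 2 h, GID1b-1 and GA2ox5, and 0 at 6 h, against 0.87% and 1.06% of all transcripts. Limma-voom called 0 at 2 h and 20ox-3 at 6 h, against 0.0029% and 0.302%. The median log2 fold change of the 40 was −0.40 at 2 h and 0.43 at 6 h in edgeR, and −0.12 and 0.36 in limma-voom.

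The receptor gene GID1b-1 stood at 40.7 and 72.9 CPM in control and 19.9 and 9.97 CPM in tunicamycin leaves at 2 h, with the groups apart. Its log2 fold change was −1.91 ± 0.57 (SE, adjusted p = 0.421). By 6 h its levels were 85.7 and 23.9 CPM in control and 34.2 and 22.7 CPM in tunicamycin leaves, so the groups overlapped. A DELLA gene, LOC101262579, was at 0.407 and 0.338 CPM in control leaves and had no count in either tunicamycin library at 2 h (adjusted p = 0.448). At 6 h the perception genes with the smallest p were LOC101256615, described as SCARECROW-LIKE 3, at a log2 fold change of 0.96 ± 0.43, and GID2 at 0.65 ± 0.32 (SE, adjusted p = 1 for both). Of 17 perception genes 11 were tested, with medians of −0.44 at 2 h and −0.19 at 6 h, which in limma-voom were −0.02 and 0.12.

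Of the 6 genes of early synthesis 5 were tested, with medians of −0.39 at 2 h and 0.06 at 6 h. The ent-kaurene oxidase gene LOC101267112 had a log2 fold change of −1.22 ± 0.70 and the ent-kaurene synthase gene TPS24 of −0.63 ± 0.45 at 2 h (SE, adjusted p = 0.772 and 0.845). At 6 h the ent-kaurenoic acid oxidase genes LOC101252522 and LOC101261488 had −1.05 ± 0.70 and 0.81 ± 0.64 (SE, adjusted p = 1 for both). Of 12 gibberellin-responsive genes 11 were tested, with medians of −1.01 at 2 h and −0.07 at 6 h (0.23 at 6 h in limma-voom). The gibberellin-regulated gene LOC101266025 had −2.84 ± 0.94 and the snakin-2-like gene LOC101265234 had 1.80 ± 0.72 at 2 h (SE, adjusted p = 0.454 and 0.608). At 6 h LOC101259800, described as gibberellin-regulated protein 11, had −1.62 ± 0.52 and the GAST1-like gene LOC101252867 had 2.04 ± 0.72 (SE, adjusted p = 0.496 and 0.629).

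Some knotted-1-like homeobox proteins are known to act on gibberellin oxidase genes in shoot tips. The descriptions do not say whether the genes named here are among them. Of 6 such genes 5 were tested, with medians of 0.63 at 2 h and 0.17 at 6 h (−0.16 at 6 h in limma-voom). The smallest p at 2 h belonged to T12, described as LET12, at 0.88 ± 0.47, and LOC101261052 at 0.63 ± 0.33 (SE, adjusted p = 0.747 and 0.749). At 6 h they belonged to TKn3, at −1.58 ± 1.31, and LOC101261052, at 0.34 ± 0.33 (SE, adjusted p = 1 for both).

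No gene overlaps GA2ox3 in the RefSeq gene order, from which names and neighbours alone were taken. The gene before it, LOC101261743, a probable pectinesterase, had log2 fold changes of −2.86 ± 0.90 at 2 h (SE, adjusted p = 0.431) and 0.01 ± 0.88 at 6 h (SE, adjusted p = 1). The gene after it, LOC101262045, described as SWR1-complex protein 4, had −0.04 ± 0.32 and 0.07 ± 0.31, and the next, LOC101262349, described as nifU-like protein 1, had 0.50 ± 0.35 and 0.18 ± 0.34. The second gene before it, the galactinol synthase gene LOC101261450, averaged 0.0438 CPM and was not tested. At 6 h the 3 neighbours tested lay between 0.01 and 0.18. The −3.67 of GA2ox3 at that time is from the comparison it was selected on, so the contrast with them is not a test.

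The genes whose pattern was most like that of GA2ox3 were ranked by the root mean square difference of their log2 CPM over all 8 libraries, each gene centred on its own mean. Among 12843 genes the median of this difference was 1.75. The nearest was JAZ2, a jasmonate ZIM-domain protein of the family that represses jasmonate responses, at 0.43. Next came LOC101246746, described as the ethylene-responsive transcription factor ERF027-like, at 0.47, ER5 at 0.47 and the diacylglycerol kinase gene DGK1, whose enzyme makes phosphatidic acid, at 0.54. The serpin-ZX-like gene LOC109118716, of a protease inhibitor family, followed at 0.57 and the leucine-rich repeat receptor-like kinase gene LOC101262225 at 0.58. The polyamine oxidase gene LOC101253022 and the ceramide inositolphosphotransferase gene LOC101257419, whose enzyme makes sphingolipids, both stood at 0.60.

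JAZ2 had log2 fold changes of −2.62 at 2 h and −2.92 at 6 h, and LOC101253022 of −2.70 and −2.95. ER5 had −1.32 at 2 h and −2.91 at 6 h. These 8 genes were picked because they resemble GA2ox3 over the same libraries, so their direction is given with no test. Among the gibberellin oxidases the nearest was the 20-oxidase LOC101265584, at 1.61 and rank 2514, and the farthest GA20ox1, at 3.71 and rank 12840. The oxidases were ranked against the candidate genes without having to reach their mean level. GA20ox1 had no count in the shallower library of either 2 h group, so counting error and depth weigh in its difference.

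**Figure D5:**
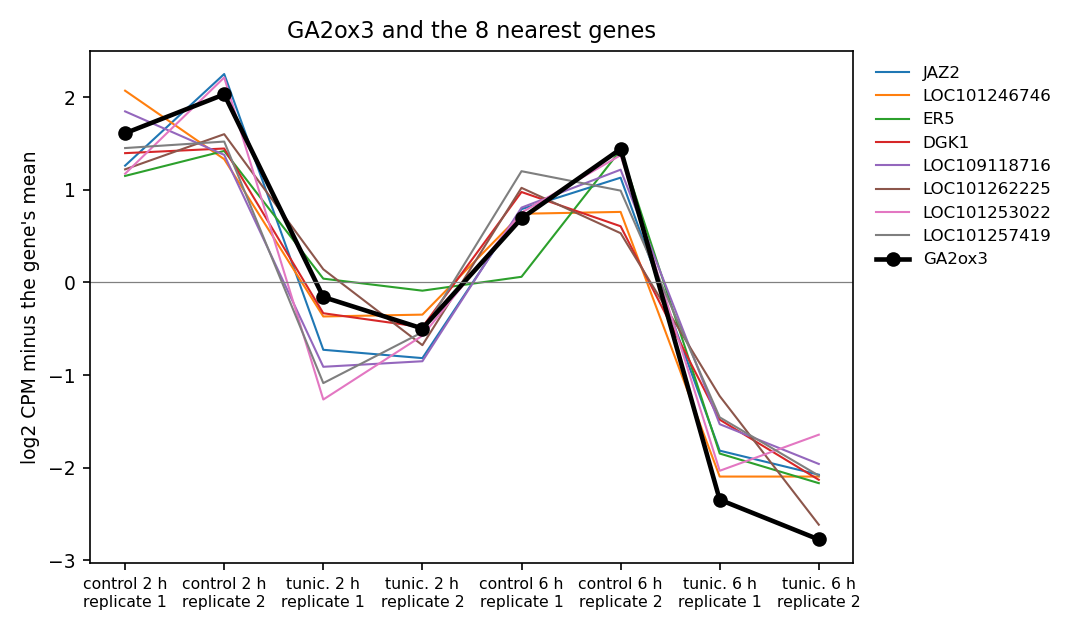
Log2 CPM, centred on each gene's mean, of GA2ox3 and the 8 genes with the smallest root mean square difference from it, in each of the 8 libraries. The differences run from 0.43 for JAZ2 to 0.60 for LOC101257419, against a median of 1.75 over 12843 candidate genes.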

How the data were processed

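RNA of 8 leaf libraries was extracted with Trizol and prepared with a directional kit, per the labels' protocols. Per the submitters' processing notes, Trimmomatic 0.40 was used. The aligner, counter, strand setting and build were not given in the sources used here. The deposited count table holds raw counts per RefSeq transcript. The authors' deposited comparison tables hold log2 fold changes and log2 CPM, an F score, p-values and false discovery rates, per the file headers, and the test behind them is not named.

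Counts were fitted with edgeR 4.0.16 in R 4.3.3: filterByExpr (minimum count 10, total 15) left 34483 transcripts of 20280 genes, which were scaled by TMM and fitted with 1 mean per group by robust quasi-likelihood, two-sided, with 4 residual degrees of freedom. The common biological coefficient of variation was 0.353. A Benjamini-Hochberg adjusted p under 0.05 was a call. CPM is scaled by TMM (trimmed mean of M-values), and log2 CPM used a prior count of 2. Standard errors are the absolute log2 fold change over the square root of F. The script was tested on simulated data. DESeq2 1.42.0 and limma 3.58.1 were alternatives. A replicate block and a depth term were further ones.

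The text names GA2ox3, each gibberellin oxidase tested, the 2 genes of smallest p in each other gibberellin list, and the 8 nearest in pattern. The 4 neighbouring genes and 3OH-2 were added after the values were seen, and the knotted-1-like and calcyclin-binding genes were then taken out of the dividing-cell markers. The gene, the lists and the tests were chosen with earlier results of these data known. Symbols were matched to RefSeq genes of assembly SLM_r2.1, in which all 28 oxidase genes were found.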

Additional observations from a re-analysis of the deposited data

How the results depend on the processing

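GA2ox3 at 2 h stayed negative in all 18 alternatives, as it was in all 4 library pairs. Its adjusted p passed 0.05 with DESeq2 (log2 fold change −2.16, adjusted p 0.000508), with no filter (−2.17, 0.000108), with only the 4 libraries compared (−2.15, 0.0291), with a depth term (−2.20, 0.0279) and, chosen after seeing the data, with replicate numbers crossed (−2.16, 0.033). Leaving out 1 library gave −2.37 to −1.96, with calls without either control 6 h library or tunicamycin 6 h replicate 2 (0.00788, 0.0212 and 0.0345). It missed the threshold with limma-voom (0.101), DESeq2 size factors (0.0704), library totals (0.0922), 1 transcript a gene (0.0936) and a replicate block (−2.14, 0.242), and without control 2 h replicate 1 (0.137) or 2 (0.839), tunicamycin 2 h replicate 1 (0.487) or 2 (0.261) or tunicamycin 6 h replicate 1 (0.0581). Leaving out 1 library gave −3.98 to −3.23 at 6 h, −1.16 to −0.44 between times in control leaves and −2.54 to −2.06 in tunicamycin leaves. The 16 calls at 2 h became 300 with DESeq2, 1 with limma-voom, 679 with no filter, 70 with only the 4 libraries compared, 40 with a depth term, 43 with crossed numbers and 6 under the replicate block. Leaving out 1 library gave 0 to 183: 6 without control 2 h replicate 1, 0 without replicate 2, 0 without tunicamycin 2 h replicate 1, 13 (12 higher) without its replicate 2, and 183, 92 and 56 without control 6 h replicate 1, replicate 2 and tunicamycin 6 h replicate 2. The 111 calls at 6 h became 366 with DESeq2, 597 with no filter, 0 with only the 4 libraries compared (1327 at an unadjusted p under 0.05), 54 with 1 transcript a gene and 51 under the replicate block. Leaving out 1 library gave 0 to 194: 66, 38, 55 and 70 without control 2 h replicate 1, replicate 2, tunicamycin 2 h replicate 1 and replicate 2, 194 without control 6 h replicate 1, and 0 and 33 (17 higher) without tunicamycin 6 h replicate 1 and replicate 2. The count of 0 other gibberellin oxidases called became 1 (GA2ox5) with DESeq2 and 2 (GA2ox4 and GA2ox5) with no filter at 2 h, and 1 (20ox-3) with limma-voom at 6 h. The cause of these changes was not tested, beyond the fewer libraries in some fits; a group left with 1 library was assumed to vary like the others. Same-numbered libraries did not deviate together (r = −0.0634 at 2 h and −0.177 at 6 h), and the numbers were not taken as pairs. The deeper library was replicate 2 in control leaves and replicate 1 in tunicamycin leaves. Depth was thus crossed with the numbers, and r cannot settle whether they are pairs. With 2 libraries a group, and 14 and 30 counts of GA2ox3 in the shallower tunicamycin libraries, depth limited the levels there.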

Other observations

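GA20ox1, a 20-oxidase, had no count or under 1 CPM in every 2 h library and 4.21 and 4.57 CPM in tunicamycin leaves at 6 h. Its log2 difference of 6 h from 2 h in tunicamycin leaves was 4.69 (adjusted p = 0.105 by edgeR). The authors' deposited table gave 4.66 with a false discovery rate of 3.14e-05. In control leaves, at 2.41 and 0.363 CPM at 6 h, the same difference was 1.69 ± 1.03 (SE). The gap between the 2 arms, 3.0 ± 1.5 (SE), did not pass the edgeR test. Of the 13 oxidase genes tested besides GA2ox3, 9 had a positive and 4 a negative difference of 6 h from 2 h in tunicamycin leaves. GA2ox5 went the other way from GA20ox1, at −2.88 ± 0.73 (SE, adjusted p = 0.114 by edgeR). DESeq2 called both GA20ox1 and GA2ox5 in this comparison, and limma-voom called GA2ox5 only.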
